A study of Mus musculus with 12 samples.

Results

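The effect of Smarcd1 knockout on MC38 cells that received no interferon (IFN) was examined in 6 of the 12 RNA sequencing libraries of the series, 3 from knockout cells and 3 from wild-type cells. MC38 is a mouse colorectal carcinoma line, and the knockout was made with a guide RNA against Smarcd1. The libraries were assigned by their titles, because in 6 samples of the series the genotype and treatment fields exchange untreated knockout cells with IFN-treated wild-type cells. Neither the number of knockout clones nor the origin of the 3 libraries of a group (3 cultures or 1) is in the labels. The spread that the p-values rest on is that between these samples, and it may be technical. Neither untreated group carried any other named alteration, and the other 6 libraries, from knockout and wild-type cells with an unspecified IFN, entered the same statistical fit. All 16676 genes with enough counts were tested.

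SMARCD1, also called BAF60A, is an accessory subunit of the SWI/SNF (BAF) complexes, which move nucleosomes and open chromatin at enhancers and promoters. Type I interferons such as interferon beta act through the receptor IFNAR1 and IFNAR2, the kinases JAK1 and TYK2, and a complex with STAT2 and IRF9 that binds the interferon-stimulated response element (ISRE). Many cells keep a low tonic interferon signal that sets the basal level of these genes, among them the antigen presentation genes and Cd274, which encodes PD-L1.

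Knockout libraries held 39899026 to 45721356 counts and wild-type libraries 32507348 to 36394538. The first principal component of the 6 libraries (54.9% of the variance) separated the genotypes, and the second (16.5%) set wild-type replicate 2 apart, whose mitochondrial genes took 4.82% of counts (1.61% and 1.62% in replicates 1 and 3). Smarcd1 itself (chromosome 15, 99702129 to 99713991, GRCm38) had 31.5, 33.5 and 36.5 TPM (a transcript level scaled for length and depth) in knockout cells, against 55.4, 68.1 and 53.5 TPM in wild-type cells. Every knockout library lay below every wild-type library, with a log2 fold change of -0.82 ± 0.13 (SE) and an adjusted p of 0.000814 (edgeR's quasi-likelihood test with Benjamini-Hochberg adjustment over all genes, threshold 0.05, used for all calls below). Of the exonic bases of Smarcd1, 12.7% overlap another gene. Protein was not measured here. Colon epithelial markers were close to absent in both groups: 3 of 11 passed the filter, and the TPM of all 11 summed to 2.78 to 3.71 in knockout and 4.28 to 4.91 in wild-type libraries. Of 14 leukocyte markers 4 passed the filter, with 0 called and sums of 9.85 to 12.9 TPM in knockout and 13.5 to 17.8 TPM in wild-type libraries. Fibroblast markers were present (229 to 281 TPM in knockout and 330 to 416 TPM in wild-type libraries) and 3 of 5 tested were lower, which is taken up with the collagens. In these bulk libraries, fewer cells of one kind and less RNA per cell cannot be told apart.

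Between knockout and wild-type cells 2835 genes differed (17.0% of those tested), 912 of them by at least 2-fold (5.47%). Large changes were mostly decreases. As the number of clones is not known, the knockout and any other difference between the lines cannot be told apart. Of the 1073 genes that rose (6.43%), 653 rose by less than 1.5-fold and 101 by at least 2-fold (0.606% of all genes), whereas 811 of the 1762 that fell (10.6%) did so by at least 2-fold (4.86% of all genes). A drop of more than 16-fold was seen for 147 genes and a rise of that size for 1. The median log2 fold change was 0.505 among genes that rose, -0.8762 among those that fell and -0.004714 over all genes tested. Genes at low levels contributed many of the large decreases. Of 2747 genes with a mean below 1 TPM, 323 fell by at least 2-fold, against 53 of 1848 genes at 100 TPM or more. That mean was over all 6 libraries, so a gene near 0 in knockout cells was classed lower. A gene could pass the filter through 1 group alone, and of 342 lower calls below 1 TPM few were small. The pattern is therefore partly set by the classing and the filter. With these 6 libraries alone in the fit, 1494 genes were called, 380 higher and 1114 lower; without knockout replicate 1, 635 genes rose, 66 of them by at least 2-fold.

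Large decreases lay along the interferon pathway, from its ligand onward. Ifnb1 (chromosome 4, 88522025 to 88522774), the gene of interferon beta, had 0, 0 and 0.0382 TPM in knockout cells, against 6.20, 3.31 and 4.65 TPM in wild-type cells. In counts this was 1 read in the 3 knockout libraries and 179 in the 3 wild-type libraries, a ratio of 225 with a 95% counting interval of 39.9 to 8940. The wild-type level was low but present in every library, and the knockout level was at or near nothing (adjusted p = 2.07e-06). The receptor genes were lower by less. Ifnar2 had 11.3, 12.5 and 14.9 TPM in knockout cells and 23.3, 21.8 and 23.4 TPM in wild-type cells (-0.81 ± 0.10), and Ifnar1 had 19.7, 22.5 and 22.6 TPM in knockout cells and 27.1, 31.2 and 27.6 TPM in wild-type cells (-0.44 ± 0.10). Neither pair of groups overlapped, but both genes lie on chromosome 16, whose genes were lower as a whole, as described with the chromosomes. The kinase genes Jak1 (0.05 ± 0.09) and Tyk2 (-0.08 ± 0.11) and the interferon gamma receptor gene Ifngr1 (0.01 ± 0.09) did not pass the test. Jak2, a kinase of the interferon gamma receptor (-0.46 ± 0.12, adjusted p = 0.0195), and the other chain of that receptor, Ifngr2 (-0.31 ± 0.09, adjusted p = 0.0342, chromosome 16), were called lower. The call of Jak2 was lost without knockout replicate 1 (0.0757) or wild-type replicate 2 (0.0565), and that of Ifngr2 without any 1 of the 6 libraries (0.0527 to 0.112).

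Transcription factors of the pathway followed. Irf7, the factor that amplifies type I interferon production, had 36.9, 40.3 and 40.2 TPM in knockout cells, against 319, 314 and 327 TPM in wild-type cells (-3.31 ± 0.10, adjusted p = 3.37e-10). Stat2 had 21.9, 24.4 and 27.1 TPM in knockout cells, against 114, 116 and 116 TPM in wild-type cells. For both genes the libraries of a group lay close together and the groups were far apart. Irf9 fell by 0.94 ± 0.08 and Irf1 by 0.82 ± 0.07 on the log2 scale. Of 9 interferon regulatory factor genes, 6 fell and 1, Irf3, rose, by a small amount (0.28 ± 0.08) whose call was lost without knockout replicate 1, 2 or 3 or wild-type replicate 2 or 3 (adjusted p = 0.0785 to 0.0938). Usp18, a feedback inhibitor at the receptor, had 28.1, 31.0 and 26.6 TPM in knockout cells and 368, 276 and 370 TPM in wild-type cells, so the inhibitor fell with the factors. Of all 20 tested genes of interferon receptors and signalling, 11 fell and 0 rose (median -0.4066).

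**Figure D1:**
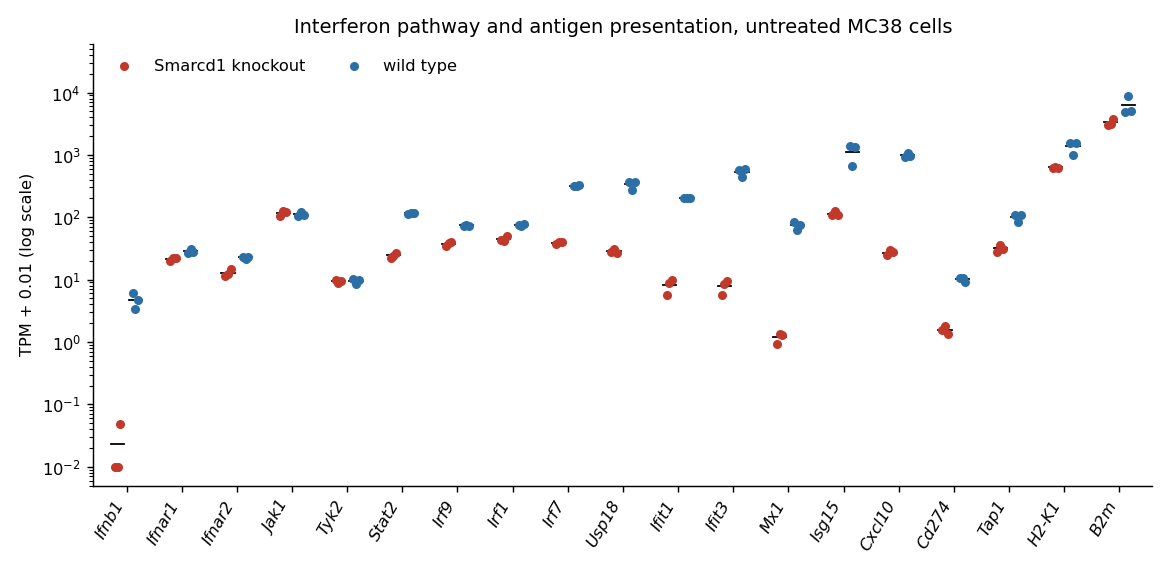
TPM of 19 interferon pathway and antigen presentation genes on a log axis after adding 0.01, with 3 knockout libraries (red, left of each pair) and 3 wild-type libraries (blue, right) as points and each group's mean as a bar. Jak1 and Tyk2 lay level in the 2 groups, whereas Ifnb1, Irf7, Ifit3, Mx1 and Cxcl10 in knockout cells lay far below wild-type cells.

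Promoter windows of some of these genes are shown because the ISRE is the site through which the pathway acts on them. They run from 250 bases before to 50 bases after the start of the gene (RefSeq, GRCm38.p6), 5′ to 3′ on the gene's strand, and capitals mark each match, on either strand, to GAAA, any 2 bases and GAAA. Cxcl10 (chr5:92348840-92349139, minus strand) holds 1 match, Ifit3 (chr19:34583279-34583578, plus strand) holds 2, Isg15 (chr4:156200769-156201068, minus strand) holds 3 that overlap each other, and Stat2 (chr10:128270248-128270547, plus strand) holds 1.
Cxcl10: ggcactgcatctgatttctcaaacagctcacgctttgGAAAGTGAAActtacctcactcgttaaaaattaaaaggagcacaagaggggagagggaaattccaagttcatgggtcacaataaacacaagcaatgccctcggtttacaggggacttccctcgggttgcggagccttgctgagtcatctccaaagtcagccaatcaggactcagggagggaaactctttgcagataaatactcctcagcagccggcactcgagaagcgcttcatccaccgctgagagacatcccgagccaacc
Ifit3: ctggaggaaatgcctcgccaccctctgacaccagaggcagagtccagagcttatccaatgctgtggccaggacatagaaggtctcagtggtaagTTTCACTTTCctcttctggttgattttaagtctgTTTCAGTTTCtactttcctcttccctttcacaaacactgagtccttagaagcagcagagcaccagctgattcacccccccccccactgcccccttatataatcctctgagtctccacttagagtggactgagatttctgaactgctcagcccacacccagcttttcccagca
Isg15: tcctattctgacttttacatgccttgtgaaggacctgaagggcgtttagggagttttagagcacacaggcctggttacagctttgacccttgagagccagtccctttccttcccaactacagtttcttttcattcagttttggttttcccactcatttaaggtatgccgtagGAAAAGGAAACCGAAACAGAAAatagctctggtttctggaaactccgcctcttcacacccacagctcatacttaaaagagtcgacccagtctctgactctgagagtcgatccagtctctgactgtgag
Stat2: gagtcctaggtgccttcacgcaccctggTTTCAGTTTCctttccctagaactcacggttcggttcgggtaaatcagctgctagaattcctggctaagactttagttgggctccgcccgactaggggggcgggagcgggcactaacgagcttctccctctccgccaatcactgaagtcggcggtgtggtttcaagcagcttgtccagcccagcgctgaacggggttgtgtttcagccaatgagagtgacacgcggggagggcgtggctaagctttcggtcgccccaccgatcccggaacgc

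The windows of Irf7, Ifnb1 and Cd274, all lower in knockout cells, hold no match to these letters; that of Cd274 (chr19:29367188-29367487, plus strand) is shown for comparison.
Cd274: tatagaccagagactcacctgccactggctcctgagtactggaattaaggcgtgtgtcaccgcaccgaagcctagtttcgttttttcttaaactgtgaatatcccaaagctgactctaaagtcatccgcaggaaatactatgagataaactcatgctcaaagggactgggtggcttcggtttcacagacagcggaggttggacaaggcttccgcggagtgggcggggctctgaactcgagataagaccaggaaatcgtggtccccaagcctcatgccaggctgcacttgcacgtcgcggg

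Among 72 genes followed individually (a panel of interferon, checkpoint, cell cycle, stress and chromatin genes), 70 were tested and 40 of these fell. Of those 40, 34 had a window, and 10 of the 34 held an ISRE match (29.4%), against 1 of the 24 other tested panel genes with a window (4.17%) and 3.44% of all 32851 windows in the table. A second interferon-linked motif, the GAS element (TTC, any 3 bases, GAA), was in 6 of the 34 (17.6%), in 0 of the 24 and in 8.3% of all windows. Motifs of other factors were searched in the same windows. Matches were found in 6 of the 34 (17.6%) for AP-1 (TGANTCA; 8.33% of the 24 and 7.81% of all windows), in 4 (11.8%) for the ATF4-linked CARE (TGATG, any base, AA; 0 of the 24 and 3.97% of all) and in 3 (8.82%) for NF-kB (GGGA, any base, TTTCC; 4.17% of the 24 and 0.411% of all). Of the others, CRE (TGACGTCA) was in 0 of the 34, 4.17% of the 24 and 1.79% of all windows. In the same order, the E-box CACGTG was in 0, 16.7% and 7.15%. The TEAD motif GGAATG was in 2.94%, 12.5% and 14.7%, and the CCAAT box in 38.2%, 45.8% and 37.4%. Both strands were read for every motif, and a higher share than over all windows was thus not particular to the interferon motifs. A match is a description of the letters in this window only. A panel gene counted if any of its windows matched, whereas the share over all windows counts single windows, so the measures are unlike. The panel was picked by kind of gene, so the 34 and the 24 also differ in the kinds of gene they hold. The same shares over all genes that fell or rose are void, because windows were found for 72.5% and 70.4% of them.

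Interferon-stimulated genes fell almost as a body. Of 47 antiviral genes tested, 44 fell, 1 rose and the median was -2.545; 43 of the 47 had all knockout libraries below all wild-type libraries, a pattern that 18.2% of all genes showed. Ifit3, which binds viral RNA together with Ifit1, had 5.68, 8.61 and 9.38 TPM in knockout cells, against 576, 442 and 600 TPM in wild-type cells (-6.11 ± 0.18, adjusted p = 2.85e-10). Mx1, a GTPase that restricts influenza viruses, had 0.931, 1.35 and 1.27 TPM in knockout cells and 83.1, 62.4 and 75.8 TPM in wild-type cells. The ubiquitin-like modifier gene Isg15 had 106.8, 126.7 and 106.9 TPM in knockout cells and 1365, 674 and 1327 TPM in wild-type cells. No library of one group reached the other for these genes, though wild-type replicate 2 was the lowest wild-type library in each. Reads of Ifit3 and its near copy Ifit3b (-6.24 ± 0.14) may have been split between them. The exception was Ifi27, a mitochondrial interferon-induced gene, which had 236, 213 and 170 TPM in knockout cells, against 52.9, 34.1 and 44.1 TPM in wild-type cells (2.25 ± 0.17, adjusted p = 1.45e-06).

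All 18 tested interferon-inducible GTPase genes, which act against intracellular pathogens, fell (median -3.665). Tgtp1 had 1.92, 3.52 and 2.63 TPM in knockout cells, against 76.4, 68.8 and 76.3 TPM in wild-type cells, and Gbp3 had 13.2, 18.3 and 16.3 TPM in knockout cells, against 237, 241 and 254 TPM in wild-type cells. The members of these families share sequence, so single values are less certain than the direction of the group. Nucleic acid sensors fell in 18 of 23 tested genes (median -2.455). Ifih1 (MDA5), a sensor of long double-stranded RNA, had 11.4, 15.1 and 16.2 TPM in knockout cells and 73.4, 86.2 and 73.9 TPM in wild-type cells, and Zbp1, a sensor of Z-form nucleic acids, had 7.23, 7.18 and 13.1 TPM in knockout cells and 193, 220 and 209 TPM in wild-type cells. Mb21d1, which encodes cGAS, was lower by less (-0.87 ± 0.15). Genes of the adaptors that relay these signals, Tmem173 (STING) at -0.26 ± 0.11, Mavs at 0.12 and Ticam1 (TRIF) at 0.12, were not called.

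Antigen presentation by MHC class I was lower throughout: 21 of 23 tested genes fell and 0 rose (median -0.9895). The heavy chain gene H2-K1 had 622, 649 and 616 TPM in knockout cells, against 1545, 1005 and 1553 TPM in wild-type cells (-1.14 ± 0.14, adjusted p = 8.12e-05). The peptide transporter gene Tap1 had 27.8, 36.3 and 31.4 TPM in knockout cells and 109, 84.8 and 108 TPM in wild-type cells. Nlrc5, the transcriptional activator of class I genes, fell by 1.28 ± 0.08, and Tapbp, which loads peptides, by 1.68 ± 0.11 on the log2 scale (29.0% of its exonic bases overlap another gene). All groups were separate, again with wild-type replicate 2 nearest to the knockout libraries for H2-K1 and Tap1. B2m, the light chain, had 3011, 3175 and 3805 TPM in knockout cells and 4952, 8941 and 5146 TPM in wild-type cells (-0.95 ± 0.23, adjusted p = 0.0146). Its call was lost without knockout replicate 1 or 2 (adjusted p = 0.0658 and 0.0513), and wild-type replicate 2 was its highest library.

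Ligands of T and NK cell receptors split. Of 16 tested, 8 fell and 0 rose (median -0.7393). Without the genes of chromosomes 9 and 16, which were lower as a whole, 5 of 11 fell and the median was -0.257. Cd274 (PD-L1, chromosome 19) had 1.54, 1.80 and 1.35 TPM in knockout cells, against 10.6, 10.6 and 9.06 TPM in wild-type cells (-2.70 ± 0.12, adjusted p = 8.47e-09). Cd276 (B7-H3) had 4.80, 5.02 and 4.51 TPM in knockout cells and 15.3, 16.9 and 17.1 TPM in wild-type cells. The "do not eat me" signal gene Cd47 had 26.2, 34.7 and 31.6 TPM in knockout cells and 60.1, 76.8 and 59.5 TPM in wild-type cells, and Lgals9, a ligand of TIM-3, fell by 1.55 ± 0.14. The groups did not overlap for these genes. Pdcd1lg2 (PD-L2) was listed at 0 in all 6 libraries. The genes Nt5e, Pvr, Nectin2 and Ceacam1 lay between -0.26 and -0.03 and were not called.

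Secreted signals changed unevenly: 11 of 26 tested chemokine and cytokine genes fell and 1 rose (median -0.7299). The CXCR3 ligand Cxcl10 had 24.6, 29.5 and 27.4 TPM in knockout cells, against 913, 1063 and 972 TPM in wild-type cells (-5.20 ± 0.15, adjusted p = 2.48e-10). Cxcl9, of the same family, had 0 counts in knockout and 356 in wild-type libraries, at least 149-fold lower, taking 3 counts per group as the floor. Ccl5 had 20.5, 12.3 and 13.4 TPM in knockout cells and 250, 151 and 276 TPM in wild-type cells. Each of these T cell attractants was thus low in all 3 knockout libraries. Il6 fell too (0, 0 and 0.0378 TPM in knockout cells, 1.53, 1.27 and 1.24 TPM in wild-type cells). The monocyte attractant Ccl2 was the member that rose, to 968, 682 and 749 TPM in knockout cells against 616, 525 and 620 TPM in wild-type cells (0.43 ± 0.14, adjusted p = 0.0487). That call did not hold without knockout replicate 1 or 3 or without wild-type replicate 1, 2 or 3 (adjusted p = 0.0646 to 0.187). Of 21 NF-kB subunit and regulator genes, 2 rose and 2 fell (9.52% each, median 0.003276), against 6.43% higher and 10.6% lower over all genes. Leaving out 1 library moved these counts: 0 rose without knockout replicate 1 or 3 or wild-type replicate 3, 1 rose without knockout replicate 2 or wild-type replicate 2, 1 fell without knockout replicate 1 and 4 fell without wild-type replicate 2.

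**Figure D2:**
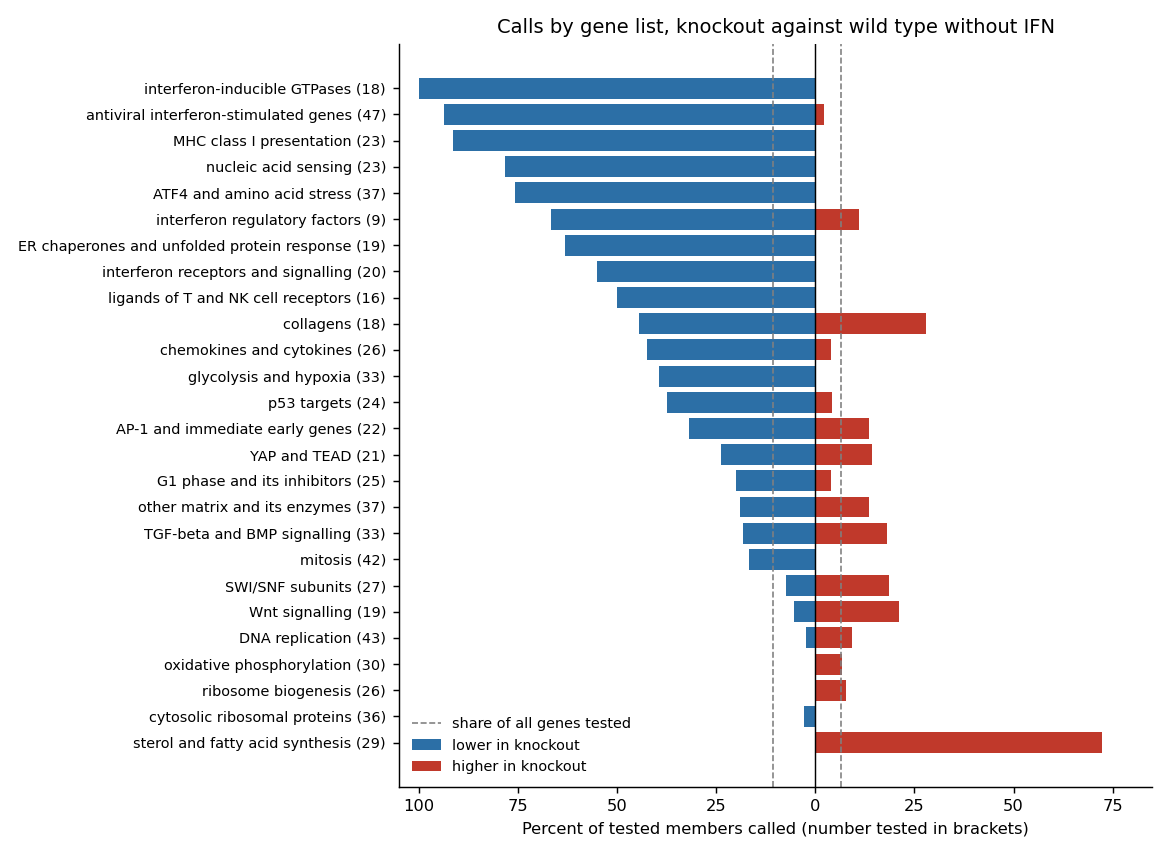
Percent of the tested members of 26 gene lists called lower (blue, left of 0) or higher (red, right of 0) in knockout against wild-type cells without IFN, with the number tested in brackets. Dashed lines mark the shares over all genes tested, 10.6% lower and 6.43% higher; the interferon lists stand at the top and sterol synthesis, the list with most members higher, at the bottom.

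Outside the interferon response, the list with the largest share of members lower, of those plotted, was that of amino acid stress genes. These are targets of ATF4, a factor translated when amino acids are short or proteins misfold. Of 37 tested, 28 fell and 0 rose (median -0.4562). With the 6 libraries alone 19 fell, and with 1 library left out 23 to 31 did. Cth, which makes cysteine from cystathionine, had 9.58, 8.49 and 10.1 TPM in knockout cells, against 28.2, 23.2 and 30.9 TPM in wild-type cells (-1.56 ± 0.13, adjusted p = 3.68e-06). The stress cytokine gene Gdf15 had 9.80, 7.92 and 7.94 TPM in knockout cells and 37.1, 22.8 and 28.0 TPM in wild-type cells. Slc7a11, the cystine importer, had 4.45, 4.94 and 4.75 TPM in knockout cells and 11.0, 12.8 and 10.8 TPM in wild-type cells. The groups were separate in each case, whereas the transcript of Atf4 itself was not called (-0.14 ± 0.08, adjusted p = 0.261). Trib3, Ddit3 (CHOP) and Aldh1l2 fell by 1.08 ± 0.16, 0.72 ± 0.11 and 1.04 ± 0.09.

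Chaperones of the endoplasmic reticulum fell with them (12 of 19 tested, 0 higher, median -0.5133). With the 6 libraries alone, 9 of 18 tested fell. Hspa5 (BiP), the main chaperone of that compartment, had 277, 372 and 265 TPM in knockout cells, against 535, 442 and 736 TPM in wild-type cells (-0.97 ± 0.21, adjusted p = 0.00823). Hsp90b1 fell by 0.65 ± 0.09, Herpud1 by 0.64 ± 0.07 and Pdia4 by 0.50 ± 0.06. Cytosolic heat shock genes showed 5 of 15 lower and 0 higher (median -0.1853), of which Hspa1b (-0.53 ± 0.10) had the smallest p; with the 6 libraries alone, 2 were called lower, and 3 without knockout replicate 1 or 2 or wild-type replicate 1 or 3. Genes of glycolysis and hypoxia were divided: 13 of 33 fell and 0 rose (median -0.2571). Those that fell were led by Ero1l (21.2, 32.2 and 31.2 TPM in knockout cells, 76.8, 93.0 and 76.1 TPM in wild-type cells), Bnip3, a mitophagy receptor (-1.11 ± 0.10), and Ndrg1 (-1.02 ± 0.10). Enzymes of the glycolytic chain such as Gapdh (0.12), Ldha (0.11) and Pgk1 (0.04) were not called.

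Sterol and fatty acid synthesis was the list that went the other way. Of 29 tested genes, 21 rose and 0 fell, with a median of 0.4916, and knockout libraries lay above all wild-type libraries for 24 of them, a pattern seen in 15.3% of all genes. Acly, which supplies cytosolic acetyl-CoA, had 226, 205 and 209 TPM in knockout cells, against 144, 131 and 141 TPM in wild-type cells (0.60 ± 0.09, adjusted p = 0.000397). Cyp51, which removes a methyl group from lanosterol, had 43.7, 52.0 and 54.6 TPM in knockout cells and 29.8, 37.6 and 32.4 TPM in wild-type cells. Insig1, the sterol sensor that restrains the pathway, had 37.4, 35.1 and 37.1 TPM in knockout cells and 26.9, 23.7 and 26.0 TPM in wild-type cells. For each of these 3 genes every knockout library lay above every wild-type library, which their choice by size or small p favours. Over the whole list the log2 fold change ran from -0.1567 to 0.7535, and 8 genes were not called. Both SREBP genes, Srebf1 (0.52) and Srebf2 (0.48), which encode the activators of the pathway, were among those that rose. With the 6 libraries alone, 11 of the 29 were called higher. Among sterol export genes, Abca1 rose (0.74 ± 0.15) and Npc2 fell (-0.92 ± 0.16).

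The largest log2 fold change upward among the 240 named genes tested was that of Thbs1 (chromosome 2, 118111876 to 118127133), which encodes the matrix protein thrombospondin 1. It had 14.9, 14.4 and 14.1 TPM in knockout cells, against 1.64, 1.60 and 1.39 TPM in wild-type cells (3.32 ± 0.12, adjusted p = 1.55e-09). Other matrix and adhesion genes that rose were the laminin chain gene Lama4 (1.31 ± 0.12) and Ctgf, a matricellular target of YAP (17.6, 13.2 and 15.6 TPM in knockout cells, 7.90, 6.93 and 7.63 TPM in wild-type cells). Loxl2, a collagen crosslinking enzyme, was lower instead, with 9.72, 10.1 and 10.3 TPM in knockout cells and 26.5, 29.8 and 26.1 TPM in wild-type cells. Over the list of non-collagen matrix genes, 5 of 37 rose (13.5%) and 7 fell (18.9%), with a median of -0.005398. The shares over all genes were 6.43% higher and 10.6% lower. Without wild-type replicate 2, 11 fell, and without knockout replicate 1 or wild-type replicate 3, 3 rose.

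Collagen genes moved in both directions: 8 of 18 fell and 5 rose (median -0.07231), although with the 6 libraries alone 5 were lower and 0 higher. The number higher was 3 without knockout replicate 1 or 2 and 2 without knockout replicate 3 or wild-type replicate 3. Col1a1, the main fibrillar collagen chain, had 2.13, 1.92 and 2.01 TPM in knockout cells, against 11.0, 9.22 and 8.84 TPM in wild-type cells (-2.47 ± 0.14, adjusted p = 6.91e-08). Col6a3 had 195, 201 and 189 TPM in knockout cells and 318, 326 and 311 TPM in wild-type cells, the highest level among the named collagens. Dcn, a proteoglycan and fibroblast marker, fell with Col1a1 (-1.55 ± 0.12), as did Col3a1 (-0.43 ± 0.10; adjusted p = 0.0699 with the 6 libraries alone). Among mesenchymal genes Twist2 rose (332, 348 and 347 TPM in knockout cells, 207, 162 and 185 TPM in wild-type cells), with 46.5% of its exonic bases overlapping another gene. The part of the fibroblast markers in these values was not tested.

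Signalling genes outside immunity showed opposing changes within lists. Of 33 TGF-beta and BMP genes, 6 rose and 6 fell (18.2% each, median 0.02534). Over all genes tested, the shares were 6.43% higher and 10.6% lower. The ligand gene Bmp2 had 1.84, 2.19 and 2.67 TPM in knockout cells and 8.54, 6.75 and 7.39 TPM in wild-type cells, while Fst (follistatin), an activin antagonist, had 4.70, 4.71 and 5.27 TPM in knockout cells and 2.12, 2.60 and 2.60 TPM in wild-type cells. Ltbp1, which tethers latent TGF-beta to the matrix, rose by 0.61 ± 0.08. Of 24 semaphorin and receptor genes, 4 rose and 4 fell (16.7% each, median -0.09971), and 7 rose without wild-type replicate 2. The guidance ligands Sema3c (23.7, 28.5 and 23.7 TPM in knockout cells, 8.58, 7.78 and 7.43 TPM in wild-type cells) and Sema3a (49.6, 50.2 and 32.2 TPM in knockout cells, 19.9, 14.8 and 21.8 TPM in wild-type cells) were higher, and their receptor gene Nrp1 was lower (-0.80 ± 0.12). In the YAP list, 5 of 21 fell (23.8%) and 3 rose (14.3%), with a median of -0.1243. The co-activator genes Wwtr1 (TAZ, -0.85 ± 0.11) and Yap1 (-0.44 ± 0.07) fell, though the TPM of Yap1 overlapped (64.0, 47.4 and 43.1 in knockout cells, 61.6, 57.7 and 64.7 in wild-type cells), and of 2 classical targets Ctgf rose (1.01 ± 0.14) and Cyr61 was not called (0.05 ± 0.13). Of 19 Wnt genes 4 rose (21.1%) and 1 fell (5.26%), with a median of 0.0321. The ligand gene Wnt5a was at 0.68 ± 0.08 and Fzd1, a gene of a Wnt receptor, at 0.77 ± 0.09.

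**Figure D3:**
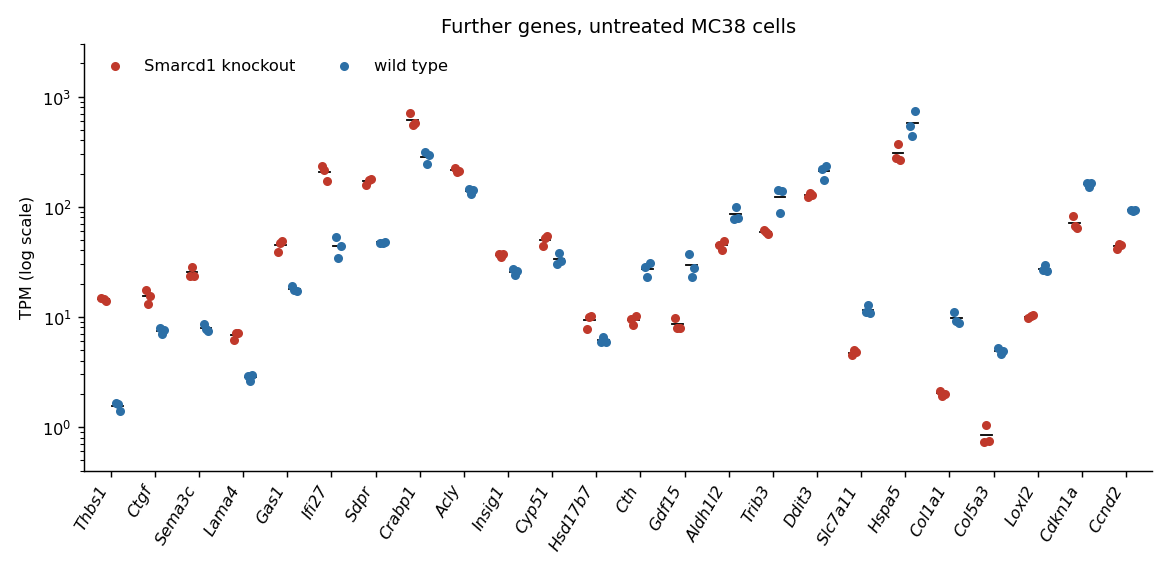
TPM of 24 genes of matrix, sterol synthesis, amino acid stress and the cell cycle on a log axis, with 3 knockout libraries (red, left of each pair) and 3 wild-type libraries (blue, right) as points and each group's mean as a bar. Thbs1 stood at 14.1 to 14.9 TPM in knockout and 1.39 to 1.64 TPM in wild-type libraries, the widest gap upward, and Col1a1 and Col5a3 showed the widest gaps downward.

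Most cell cycle genes were not called, but several fell. Cdkn1a (p21), an inhibitor of cyclin-dependent kinases and p53 target, had 81.7, 66.6 and 64.2 TPM in knockout cells, against 163, 152 and 163 TPM in wild-type cells (-1.19 ± 0.10, adjusted p = 2.8e-06). Ccnd2 (cyclin D2) had 41.3, 45.8 and 44.6 TPM in knockout cells and 93.8, 91.8 and 93.6 TPM in wild-type cells. Thus both an inhibitor and a driver of G1 were lower in every knockout library; Ccne1 also fell (-0.46 ± 0.07). Of 25 G1 genes 5 fell and 1 rose (median -0.1934), of 43 replication genes 4 rose and 1 fell (median 0.1016), and of 42 mitosis genes 7 fell and 0 rose (median -0.1059), against 10.6% lower and 6.43% higher over all genes. Without knockout replicate 1 or wild-type replicate 2, 4 mitosis genes fell, and without knockout replicate 1 or wild-type replicate 3, 2 replication genes rose. Outside chromosomes 9 and 16, which were lower as a whole, 4 of 38 mitosis genes fell (median -0.0586). Only 2 of 42 fell with the 6 libraries alone. Aurka, a spindle kinase, fell by 0.50 ± 0.08. Mki67 (-0.13 ± 0.21), Top2a (-0.16 ± 0.10), Mcm2 (0.20 ± 0.10), Myc (-0.53 ± 0.19) and Trp53 (-0.01 ± 0.06) were not called. Of 24 p53 targets 9 fell and 1 rose (median -0.2564), and 5 fell without wild-type replicate 2. Cytosolic ribosomal protein genes, 36 in all, had 1 lower and 0 higher (median 0.1547).

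Among the 27 SWI/SNF subunit genes, 5 rose (18.5%) and 2 fell (7.41%), with a median of 0.09668, against 6.43% and 10.6% over all genes. In the fit of the 6 libraries alone, 0 rose and 1 fell. The number that rose was 3 without knockout replicate 2 and 2 without knockout replicate 1 or 3 or wild-type replicate 1 or 3. Besides Smarcd1, Phf10, a subunit of the PBAF form, was lower (112, 142 and 153 TPM in knockout cells, 180, 265 and 180 TPM in wild-type cells, -0.57 ± 0.13, adjusted p = 0.0105), and Dpf1 was higher (0.39 ± 0.09); with the 6 libraries alone both calls were lost (adjusted p = 0.0746 for Phf10 and 0.0831 for Dpf1). The catalytic subunit genes Smarca4 (-0.14 ± 0.09) and Smarca2 (0.09 ± 0.11) and the paralogue Smarcd2 (0.10 ± 0.09) were not called; Smarcd3 was called at 0.37 ± 0.11 (adjusted p = 0.0442), but not without knockout replicate 1, 2 or 3 or wild-type replicate 2 or 3 (0.0889 to 0.103). Outside SWI/SNF, Smarca1, the ATPase of an ISWI remodeller, had 0 counts in knockout and 204 in wild-type libraries, at least 85.6-fold lower. Other named genes with 3 or fewer reads in the knockout libraries included Ms4a4d (2 against 1963 reads in wild-type libraries), the LIM domain gene Fhl1 (3 against 892), Hoxd11 (3 against 507), the inflammatory caspase gene Casp1 (2 against 70) and the EGFR ligand gene Areg (0 against 26). Rnf26 had 0, 0 and 1 reads in knockout libraries, against 364, 118 and 394 in wild-type libraries (adjusted p = 0.0204). Its call was lost without knockout replicate 1, 2 or 3 (0.0686 to 0.0914), 85.2% of its exonic bases overlap another gene, and with IFN its log2 fold change was 1.62 (adjusted p = 0.518).

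Calls were unevenly spread over the genome. Chromosomes 9 and 16 were lower as a whole, an observation made after the per-chromosome medians had been seen and therefore given without a test. On chromosome 9, 213 of 914 tested genes fell (23.3%) and 9 rose, with a median log2 fold change of -0.2745. On chromosome 16, 147 of 469 fell (31.3%) and 6 rose, with a median of -0.2922. Elsewhere 9.17% of 15293 genes fell and 6.92% rose, with a median of 0.01635. The excess was in small changes: genes at least 2-fold lower made up 5.71% of the 2 chromosomes and 4.79% of the rest.

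**Figure D4:**
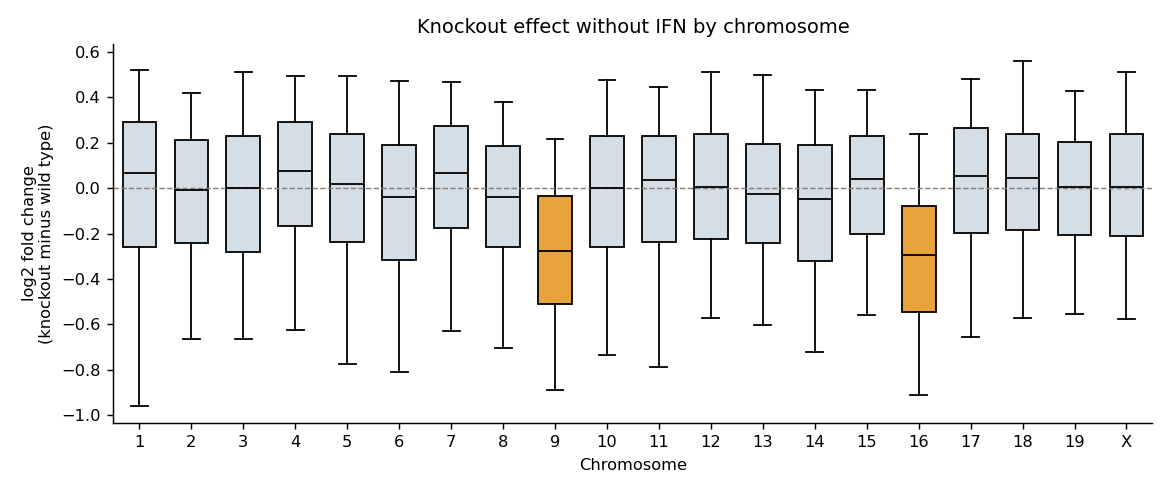
Log2 fold change, knockout minus wild type without IFN, of all genes tested on chromosomes 1 to 19 and X, as the median (line), quartiles (box) and 10th and 90th percentiles (whiskers). Chromosome Y and the mitochondrial genome (30 genes, median -0.4126, 0 called) are not drawn. Of those drawn, chromosomes 9 and 16 (orange) lie lowest, with 77.2% and 80.2% of their genes below 0.

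The shift ran along both chromosomes. All 17 windows of 5 Mb on chromosome 9 and all 8 on chromosome 16 that held at least 20 tested genes had a median below 0, from -0.3963 to -0.1553 and from -0.5608 to -0.1122; of 283 windows elsewhere, 130 did. A chromosome score was computed for each library, as the median over the chromosome's genes of log2 CPM (counts scaled to library size) relative to the gene's mean over 12 libraries, less the same over all autosomes. The score of chromosome 9 was -0.1443, -0.1121 and -0.1351 in knockout libraries, against 0.1258, 0.1532 and 0.1264 in wild-type libraries. For chromosome 16 it was -0.1848, -0.1424 and -0.1372 in knockout libraries and 0.1169, 0.1993 and 0.1302 in wild-type libraries. The groups were wide apart, and the IFN-treated libraries, which enter the gene means behind the score, gave the same order: the difference on chromosome 9 was -0.2487 with IFN and -0.2656 without, and on chromosome 16 it was -0.2584 with IFN and -0.3036 without. For the 18 other chromosomes scored the difference without IFN ran from -0.06223 to 0.08129. Genes named above that lie on these chromosomes include Ifnar1, Ifnar2, Mx1 and Cd47 on 16, and Cd276, Mb21d1, Smarca4 and Yap1 on 9. The values of Ifnar1 (-0.44) and Yap1 (-0.44) lay between the quartiles of their chromosomes' genes, which were -0.5471 and -0.08036 on 16 and -0.5103 and -0.03603 on 9, while Ifnar2, Cd47, Mx1 and Cd276 lay below it.

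**Figure D5:**
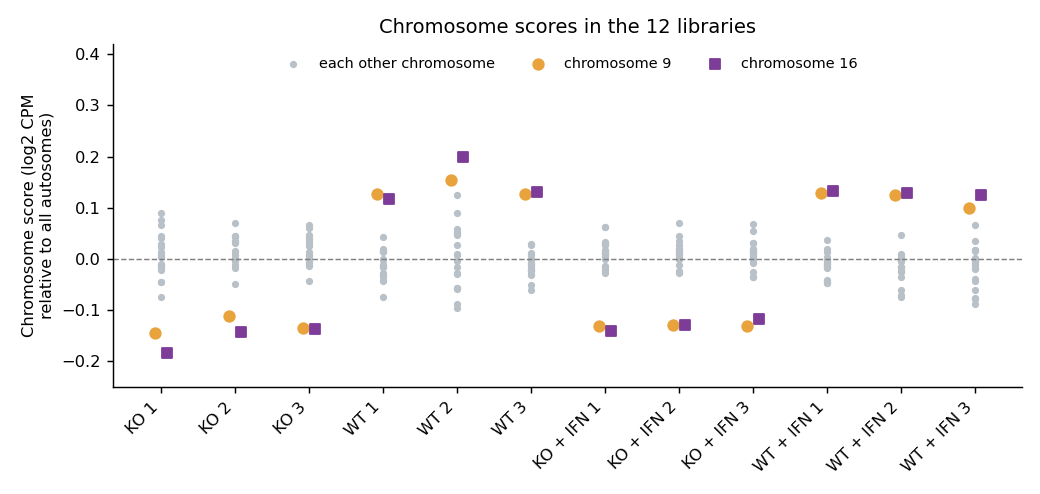
Chromosome scores (log2 CPM relative to all autosomes) of the 12 libraries, with knockout groups left of their wild-type groups; orange circles are chromosome 9, purple squares chromosome 16 and grey points each of the 18 others. Both marked chromosomes lie at -0.1848 to -0.1121 in untreated knockout libraries and at 0.1169 to 0.1993 in untreated wild-type libraries.

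The knockout was also compared with wild type under IFN, in the other 6 libraries, which share the fit, its filter and its estimate of the spread with the comparison above. There, 2622 genes were called (15.7%), 852 higher (5.11%) and 1770 lower (10.6%). Without IFN-treated knockout replicate 1, 1726 were called. Of the 1762 genes that fell without IFN, 1109 also fell with IFN (62.9%, and 62.7% of the 1770), and 10 rose. Of the 1073 that rose, 413 rose again (38.5%, and 48.5% of the 852), and 5 fell. The median over the genes that fell was -0.6956 with IFN against -0.8762 without. The effect of the knockout differed between the treatments for 170 genes (1.02%, edgeR interaction test), 118 with a higher value with IFN (0.708%) and 52 with a lower one (0.312%). Panel genes that fell without IFN but were not called with it included Irf1 (0.20), Tap1 (-0.20), B2m (-0.09), Psmb8 (-0.13) and Mb21d1 (-0.22). The class I genes H2-K1 (-0.58), H2-D1 (-0.56) and Nlrc5 (-0.43) were still lower with IFN. Mx1 (-4.86) and Usp18 (-3.52) stayed far below wild type with IFN, and their interactions were not called (adjusted p = 0.0516 and 0.764). Ifnb1 had 0.00752 CPM in IFN-treated knockout and 1.96 CPM in IFN-treated wild-type cells.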

How the data were processed

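Poly-A RNA was sequenced as 150 bp paired reads. Per the submitters' processing notes, CASAVA, Trimmomatic 0.36, FastQC 0.11.2 and HISAT2 2.1.0 were used with GRCm38; how reads were counted, with which strand setting and annotation, is not given in the sources used here. Besides, the protocol text names RNA from whole cells or from polysome fractions, and the labels give total RNA for all samples. The authors deposited raw counts per gene and TPM values for 51826 genes, of which 51633 (99.63%) matched GENCODE M21 for positions and overlaps.

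The deposited counts were tested in R 4.3.3 with edgeR 4.0.16: filterByExpr (minimum count 10, minimum total 15), TMM scaling, and a robust quasi-likelihood fit with 1 mean per group over all 12 libraries (8 residual degrees of freedom). Calls required an adjusted p below 0.05 (Benjamini-Hochberg over 16676 genes). The standard error (SE) was taken from the F statistic and is approximate where a group is near 0 counts. TPM values are the authors' and are printed as levels; "overlap" of groups in counts over many genes was judged on CPM. Counting intervals and floors cover counting error only. On data simulated for the knockout comparison without IFN (16342 genes tested), 22.1%, 80.3% and 100% of genes changed by 0.5, 1 and 2 on the log2 scale were recovered. Only 68, 66 and 66 genes were changed by these sizes, a far smaller share than the 17.0% called in the data. Recovery of small changes in the data may therefore differ.

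Named genes were the 15 largest changes in each direction (at least 2 CPM, groups separate), the 8 largest TPM differences in each direction, a panel of 72 genes, and the 4 smallest p of each list; not all are printed, and some results are not reported here. Mavs, Ticam1, Nt5e, Pvr, Nectin2, Ceacam1, Il6, Gapdh, Ldha, Pgk1, Srebf1 and Srebf2 fall outside this rule and were chosen after their values were seen. For genes picked by size or p, separate groups were favoured by the choice itself. The genes and lists were chosen with earlier results of these data known, so list counts are descriptions without a set test. Replicate numbers did not pair the libraries: correlations of deviations between same-numbered libraries were 0.113, 0.0475 and -0.073. Alternatives were other scalings, filters, DESeq2 1.42.0, a replicate block, the 6 libraries alone, each library left out, and, chosen after seeing the data, chromosomes 9 and 16 left out.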

Additional observations from a re-analysis of the deposited data

Results flagged for a closer look

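Of 70 panel genes tested, 16 had a knockout effect that differed with IFN (edgeR interaction, adjusted p below 0.05 over all genes), 12 with a higher and 4 with a lower value. Over all genes, 170 of 16676 were called (1.02%), and the panel was chosen with earlier results of these data known. Values are the log2 effect of the knockout with IFN minus that without. The chemokine genes were Cxcl9 (8.04, fitted against 0 counts in untreated knockout cells and no measure of size), Cxcl10 (2.87) and Ccl5 (1.76). Signalling genes included Irf7 (1.70), Stat2 (1.09) and Irf1 (1.02). Antigen presentation, checkpoint and antiviral genes were Ifit3 (1.60), Tap1 (1.44), Cd274 (1.22), Nlrc5 (0.85) and Ifih1 (0.77). Of the genes named so far, all but Irf1 also had a negative knockout effect with IFN, among which that of Tap1 was not called. The 4 lower values were those of Slc7a11 (-0.99) and Trib3 (-1.12), which fell by more with IFN, of Thbs1 (-1.50), which rose by less, and of Ctgf (-1.52), which was 1.01 without and -0.51 with IFN.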

How the results depend on the processing

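The number of genes called without IFN was 2830 with DESeq2 size factors, 2952 without TMM, 3549 by DESeq2, 2369 without a filter, 2668 with a strict filter and 2398 with chromosomes 9 and 16 left out (1021 higher, 1377 lower); it was 1494 with only the 6 libraries compared, whereas the same restriction gave 3561 calls in place of 2622 with IFN; the cause was not tested. Leaving out 1 library gave 2026 to 2656 calls without IFN, 795 to 889 at least 2-fold, 1726 to 2246 with IFN and 118 to 212 for the interaction. The interaction count was 357 by DESeq2, of which the cause was not tested. The replicate block left 2522 calls without IFN. No named gene changed sign while called in any setting. Of the named genes, 42 lost their call with the 6 libraries alone and 28 without knockout replicate 1, the most of any library left out; the block ended 9 calls. Among panel genes, the calls of Ccnd1, Ifngr2, Irf3, Smarcd3, Ccl2, Jak2 and B2m were lost in at least 2 of these fits. Genes changed by 0.5 or less on the log2 scale are at the limit of 3 libraries a group.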
